A study of Mus musculus with 16 samples.

Results

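The T-cell costimulatory and checkpoint receptors described here were 9 named genes, taken by symbol, of the 11713 genes counted in single spleen cells. They were Cd28, Icos, Ctla4 and Pdcd1 of the CD28 family, Cd27, Tnfrsf4 and Tnfrsf18 of the tumour necrosis factor (TNF) receptor family, the TNF family ligand Cd40lg, and Izumo1r, which encodes folate receptor 4. All 9 were present. Spleens of female BALB/cJ mice aged 9 months were profiled by CITE-seq, which counts messenger RNA and DNA-tagged antibodies in the same droplet. The animals carried no stated transgene, deletion or treatment, so the groups compared are cell populations of the same tissue. The deposited tables held 2 libraries, Main1 and Main2, with 3179 and 3918 droplets, 7964712 and 10174799 unique molecular identifiers (UMIs, each 1 counted RNA molecule) and medians of 1789 and 1778 UMIs per droplet. The design text speaks of 2 spleens, but the labels do not tie a library to an animal. The p-values therefore measure only counting error and how unevenly differences between populations repeated in these 2 libraries, which may be technical. In the main fits that spread was shared almost wholly over genes, so a gene's own spread carried little weight.

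T cells need a signal through their antigen receptor and a second signal from costimulatory receptors. CD28 on the T cell binds CD80 and CD86 on antigen-presenting cells, and CTLA-4 competes for the same ligands and restrains the response. ICOS supports helper T cells that assist B cells, and PD-1, the product of Pdcd1, damps signalling. CD27, OX40 (Tnfrsf4) and GITR (Tnfrsf18) are TNF receptors that sustain T cells through TRAF adaptors and NF-kB, and regulatory T cells carry much OX40, GITR and CTLA-4. CD40 ligand on CD4 T cells activates B cells and dendritic cells through CD40. Folate receptor 4 marks mouse regulatory and anergic CD4 T cells.

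Populations were gated on antibodies alone: CD4 T cells (541 droplets, 278 in Main1 and 263 in Main2), CD8 T cells (100, or 29 and 71), NK cells (106, or 42 and 64) and B cells (5339, or 2358 and 2981). A T droplet was positive for the T-cell receptor or CD3 antibody, negative for B-lineage antigens, and had at least 2 times as many tags of one coreceptor, CD4 or CD8a, as of the other. NK droplets had at least 5 NKp46 tags and no T, B or myeloid antigen. In CPM, the UMIs of a gene per 1000000 UMIs of a gate, T-cell marker genes summed to 7814 and 8037 in the CD4 T gate of Main1 and Main2, and to 1012 and 1532 in the NK gate, where Trac was at 0. CD8 marker genes summed to 205 and 198 CPM in the CD4 T gate, against 1801 and 1705 in the CD8 T gate, and B-cell markers to 300 to 337 in the T and NK gates, against 9049 and 9081 in the B gate. Erythroid markers summed to 2985 and 2829 CPM in the CD4 T gate, with 93.0% and 93.3% of them in 1 droplet of each library, to 221 and 180 in the CD8 T gate, and to 25272 and 508 in the NK gate, with 98.5% of the Main1 sum in 1 droplet. The libraries shared 14 droplet barcodes. Beside these gates, 343 droplets had both T and B antigens and 96 T droplets had no clear coreceptor. Together with the ungated rest they were left out of the comparisons, although the 343 alone held 13.3% (Pdcd1) to 33.5% (Icos) of the UMIs of a member. In sums over many cells, fewer cells with a transcript and less RNA per cell cannot be told apart.

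On the genome (mm10, GENCODE vM21 gene models), 3 of the CD28 family genes lay together on chromosome 1: Cd28 at chr1:60716800-60773359, Ctla4 at chr1:60887000-60915832 and Icos at chr1:60977927-61000320, all on the plus strand. Pdcd1 was on the same chromosome at chr1:94038305-94052553 on the minus strand. Tnfrsf4 (chr4:156013843-156016612) and Tnfrsf18 (chr4:156026164-156028895) were neighbours on the plus strand, 9551 bases apart. Cd27 was at chr6:125232622-125237010 and Izumo1r at chr9:14885814-14903949, both on the minus strand, and Cd40lg at chrX:57212143-57224042 on the plus strand.

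Promoter windows of 4 members are shown because they stand for the 2 patterns described next, detection almost solely in CD4 T cells (Tnfrsf4, Izumo1r) and detection in NK and B cells as well (Tnfrsf18, Cd27). Each runs from 250 bases before to 50 bases after the RefSeq start in GRCm38.p6, 5′ to 3′ on the strand of the gene: chr4:156013445-156013744 for Tnfrsf4, chr9:14903718-14904017 for Izumo1r, chr4:156026072-156026371 for Tnfrsf18 and chr6:125236978-125237277 for Cd27. Capitals mark matches on either strand to any of 6 short motifs: NF-kB (GGG, any 5 bases, then CC), NFAT (GGAAA), AP-1 (TGANTCA), RUNX (TGTGGT), TCF/LEF (CTTTGA) and forkhead (TGTTTAC).
Tnfrsf4: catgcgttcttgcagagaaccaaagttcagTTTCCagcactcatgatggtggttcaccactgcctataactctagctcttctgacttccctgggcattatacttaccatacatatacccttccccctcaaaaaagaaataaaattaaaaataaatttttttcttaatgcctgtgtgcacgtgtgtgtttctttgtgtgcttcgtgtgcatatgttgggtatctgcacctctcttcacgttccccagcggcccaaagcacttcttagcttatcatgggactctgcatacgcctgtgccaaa
Izumo1r: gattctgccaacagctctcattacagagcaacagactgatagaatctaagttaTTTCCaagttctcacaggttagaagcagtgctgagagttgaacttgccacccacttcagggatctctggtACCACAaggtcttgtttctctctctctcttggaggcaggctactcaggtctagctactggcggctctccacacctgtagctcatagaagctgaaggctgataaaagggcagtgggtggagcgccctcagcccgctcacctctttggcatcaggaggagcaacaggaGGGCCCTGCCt
Tnfrsf18: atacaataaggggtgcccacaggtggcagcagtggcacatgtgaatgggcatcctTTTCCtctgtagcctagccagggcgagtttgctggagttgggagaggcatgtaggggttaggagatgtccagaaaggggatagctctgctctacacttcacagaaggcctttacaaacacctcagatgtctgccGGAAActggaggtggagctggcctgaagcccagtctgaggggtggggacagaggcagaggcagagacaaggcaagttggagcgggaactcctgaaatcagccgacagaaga
Cd27: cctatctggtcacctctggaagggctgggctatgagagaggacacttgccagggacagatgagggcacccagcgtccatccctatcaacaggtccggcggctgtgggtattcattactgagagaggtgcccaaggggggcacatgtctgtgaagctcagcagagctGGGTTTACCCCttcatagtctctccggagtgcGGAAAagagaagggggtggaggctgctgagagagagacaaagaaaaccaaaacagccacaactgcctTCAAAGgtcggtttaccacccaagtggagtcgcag
All 4 windows held the NFAT letters, as did 61.3% of the 32851 mouse promoter windows of this length, and those of Cd27 and Izumo1r held the NF-kB letters, as did 50.8%. Cd27 alone of the 4 held the TCF/LEF letters (16% of all windows) and Izumo1r alone the RUNX letters (16.8%). None of the 4 held the AP-1 (7.81%) or forkhead letters (3.65%). The NF-kB match of Cd27 was a run of overlapping matches, on both strands, from position -84. A match of so few letters is a description of the sequence and not a bound site.

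Across the 4 gates the 9 genes fell into a set seen almost solely in CD4 T cells, a set shared by CD4 and CD8 T cells, and a pair, Cd27 and Tnfrsf18, that NK and B cells carried too. Levels are CPM, given for Main1 and then Main2. Tests were edgeR quasi-likelihood tests on these sums with the library as a block, with p adjusted over all genes that had at least 50 UMIs in the populations compared. Between CD4 and CD8 T cells, 88 of 4393 genes (2.00%) passed at an adjusted p under 0.05, 57 of them (1.30%) higher in CD4 T cells. Of the 9 members 8 could be tested, and 4 were higher in CD4 T cells and none lower: Izumo1r, Tnfrsf4, Cd40lg and Tnfrsf18. The CD4 T gate held 820704 and 828189 UMIs and the CD8 T gate 81601 and 232790. A gene high in CD8 T cells alone thus needed a higher level to reach 50 UMIs. The 4 members called reached 50 UMIs through the CD4 T gate alone, so their count is a description. All 4 erythroid markers tested were higher in CD4 T cells too. An alternative called RNA purity left out T and NK droplets with at least 2 UMIs summed over Cd79a, Cd79b, Ms4a1, Lyz2, C1qa, S100a8, Hba-a1 and Hbb-bs. These are B, myeloid and erythroid genes, and droplets with fewer such UMIs stayed in. After RNA purity, Izumo1r (log2 fold change 2.83) and Tnfrsf4 (3.25) passed, among 0.989% of 2224 genes higher in CD4 T cells. Tnfrsf18 did not (1.26, adjusted p = 0.16), and Cd40lg had too few UMIs.

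**Figure D1:**
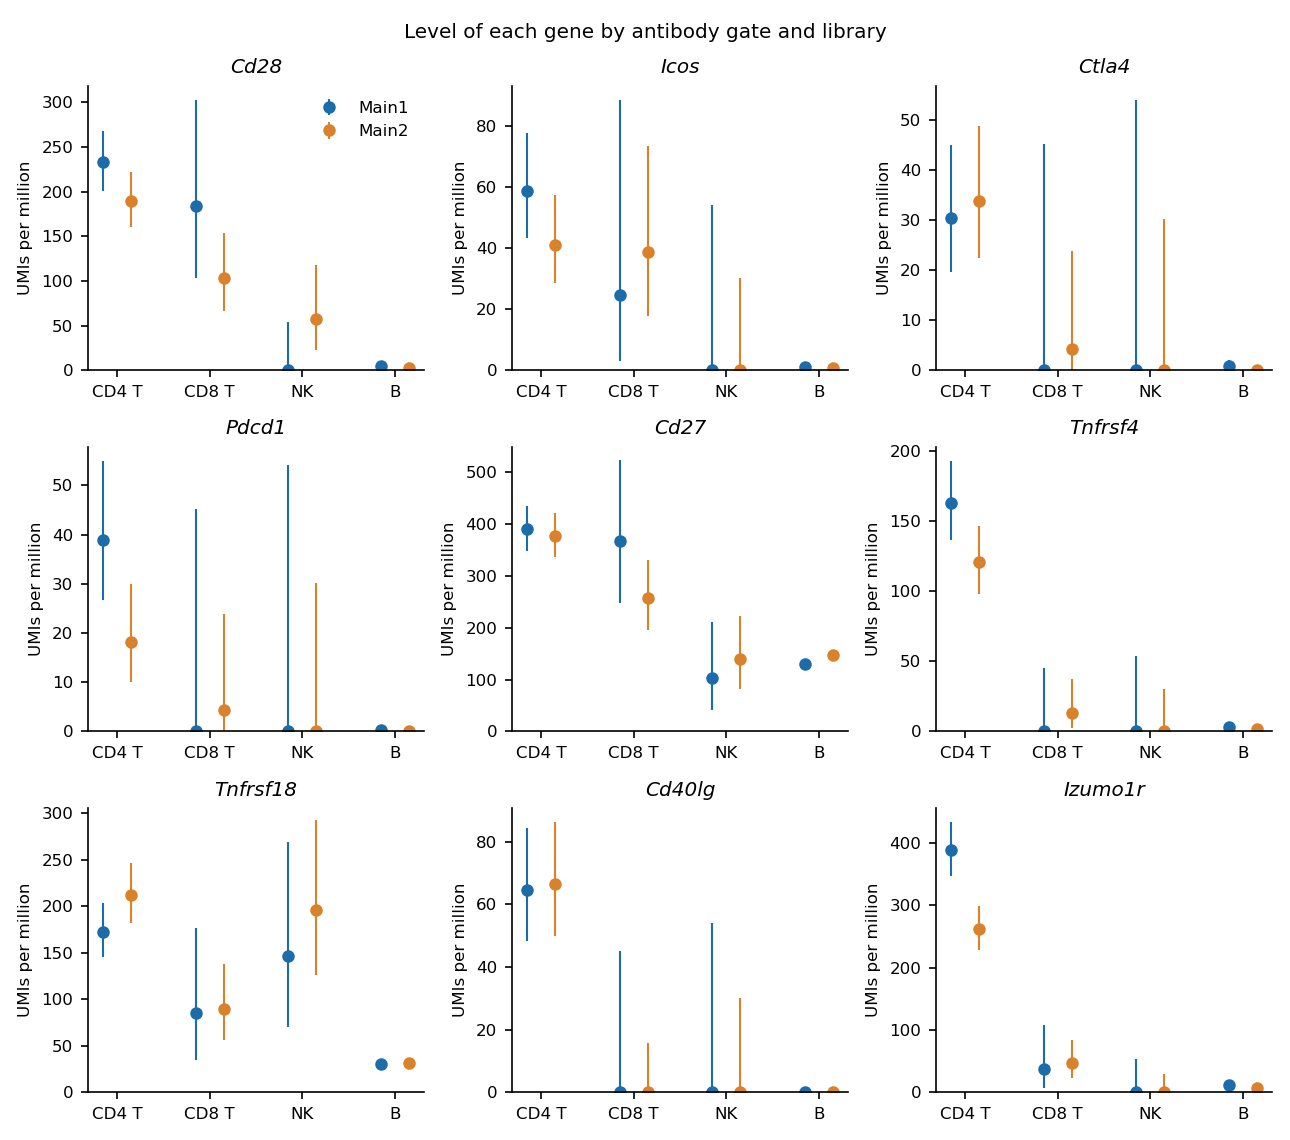
CPM of each of the 9 genes (y axes, linear from 0) in the CD4 T, CD8 T, NK and B gates, 1 point per library with its exact 95% Poisson interval (counting error only). Tnfrsf4, Izumo1r, Cd40lg, Ctla4 and Pdcd1 stood out in CD4 T cells, while Tnfrsf18 in NK cells (147 and 197) was near its level in CD4 T cells (173 and 213).

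Among the CD28 family, Cd28, the primary costimulatory receptor, had 233 and 190 CPM in CD4 T cells of Main1 and Main2, 184 and 103 in CD8 T cells, 0 and 57.3 in NK cells, and 4.43 and 2.58 in B cells. Both CD4 T values lay just above both CD8 T values, and the 7 UMIs in NK cells all came from Main2. The difference between CD4 and CD8 T cells did not pass (log2 fold change 0.65, SE 0.25, adjusted p = 0.24). With a stricter gate of 10 times as many tags of one coreceptor, chosen after seeing the data, Cd28 was higher in CD4 T cells (log2 fold change 1.28, adjusted p = 0.0061; 3.46% of genes passed there, 2.50% higher), at 238 and 205 CPM against 152 and 64.6. Cd28 was detected in 40.5% of CD4 T droplets (exact 95% interval 36.3 to 44.8), 26.0% of CD8 T droplets, 5.66% of NK droplets and 0.674% of B droplets.

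Icos, a helper T-cell costimulator, had 58.5 and 41.1 CPM in CD4 T cells and 24.5 and 38.7 in CD8 T cells. The CD8 T values rested on 2 and 9 UMIs, and the pooled ratio was 1.42 (95% counting interval 0.754 to 2.96), so no difference was detectable at this depth. In NK cells Icos was at 0, below a floor of 15.8 CPM (3 UMIs over the gate), and CD4 T cells were at least 3.15-fold higher. In B cells 9 UMIs were counted in 5339 droplets.

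The inhibitory members were rarer. Ctla4 had 30.5 and 33.8 CPM in CD4 T cells and 0 and 4.30 in CD8 T cells, where 1 UMI was counted in all. The CD4 over CD8 ratio of 10.1 had a counting interval of 1.74 to 407 and did not pass the test (adjusted p = 0.21). Pdcd1 had 39.0 and 18.1 CPM in CD4 T cells and 0 and 4.30 in CD8 T cells, again from 1 UMI, for a ratio of 8.96 (1.53 to 361). It fell under the 50 UMIs needed for that test. Neither gene had a UMI in the 106 NK droplets, and in B cells they had 5 and 2 UMIs. Ctla4 was detected in 7.39% and Pdcd1 in 7.21% of CD4 T droplets.

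Of the TNF receptors, Tnfrsf4 (OX40) was the most restricted. It had 163 and 121 CPM in CD4 T cells, against 0 and 12.9 in CD8 T cells, 0 and 0 in NK cells and 2.82 and 1.78 in B cells. The lowest CD4 T value lay far above the highest value elsewhere. CD4 T cells were 14.9-fold higher than CD8 T cells (counting interval 5.03 to 72.6, from 3 UMIs in CD8 T cells; adjusted p = 9.8e-09). They were at least 9.00-fold higher than NK cells and 63.3-fold higher than B cells (41.9 to 99.9). Tnfrsf4 was seen in 19.8% of CD4 T droplets, 2 of 100 CD8 T droplets and 0.468% of B droplets.

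Tnfrsf18 (GITR), the neighbour of Tnfrsf4 on chromosome 4, was spread more widely. It had 173 and 213 CPM in CD4 T cells, 85.8 and 90.2 in CD8 T cells, 147 and 197 in NK cells and 30.4 and 31.6 in B cells. CD4 T values were above CD8 T values without overlap (log2 fold change 1.12, SE 0.27, adjusted p = 0.0041), a call kept in 8 of 11 alternatives. NK and CD4 T values overlapped, with a pooled CD4 over NK ratio of 1.08 (0.756 to 1.59). NK cells were higher than B cells (log2 fold change 2.14, SE 0.32, adjusted p = 1.3e-09), where 938 of 8766 genes (10.7%) passed, 3.99% higher and 6.71% lower in NK cells, and Tnfrsf18 was called alone of the 3 members tested. The balance of directions over all genes turned with the scaling, with 350 genes higher and 588 lower in NK cells, but 612 (6.98%) higher and 384 lower without a TMM factor (median log2 fold change -0.26 and 0.10), and Tnfrsf18 was called higher in both. The T-cell marker sum of the NK gate was 1012 and 1532 CPM, against 7814 and 8037 in the CD4 T gate, and Trac, Izumo1r, Tnfrsf4 and Cd40lg were all at 0 in NK cells. Tnfrsf18 was detected in 26.4% of NK droplets (18.3 to 35.9) at medians of 1415.5 and 1633 UMIs per droplet, and in 35.5% of CD4 T droplets at medians of 2192 and 2254. After thinning every droplet to 1000 UMIs the shares were 15.1% in NK and 19.0% in CD4 T cells, but at 1500 UMIs, which left 58 NK and 455 CD4 T droplets, they were 25.9% and 22.0%, so no order is read from them.

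Cd27, whose ligand is CD70, had 390 and 378 CPM in CD4 T cells, 368 and 258 in CD8 T cells, 103 and 139 in NK cells and 130 and 147 in B cells. T cells were higher than B cells (log2 fold change 1.22, SE 0.15, adjusted p = 1.1e-14) and than NK cells (1.72, SE 0.27, adjusted p = 8.7e-09), while the values of NK and B cells overlapped, at a pooled NK over B ratio of 0.907 (0.579 to 1.35). CD4 over CD8 T cells gave 1.34 (1.07 to 1.69) and did not pass (adjusted p = 0.59). B cells, the largest gate, held 49.3% of all Cd27 UMIs and 34.7% of all Tnfrsf18 UMIs, but only 1.09% to 10.6% of those of the other members.

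Cd40lg, the helper signal to B cells, had 64.6 and 66.4 CPM in CD4 T cells and none in the 100 CD8 T or 106 NK droplets. Against the floors of 3 UMIs over each gate (9.54 and 15.8 CPM), CD4 T cells were at least 6.86-fold higher than CD8 T cells (adjusted p = 3.3e-05) and at least 4.15-fold higher than NK cells. B cells had 2 UMIs of Cd40lg in 5339 droplets. Izumo1r had 389 and 262 CPM in CD4 T cells, 36.8 and 47.3 in CD8 T cells, 0 in NK cells and 12.5 and 7.10 in B cells. The CD4 T values were above all others in both libraries, at 7.30 times the pooled CD8 T value (4.31 to 13.4; adjusted p = 1.1e-16) and at least 20.6 times the NK floor. The CD8 T value of Izumo1r rested on 14 UMIs in 7 droplets.

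Set against B cells, the mean of CD4 and CD8 T cells was higher for 7 of the 9 members, where 1836 of 9145 genes (20.1%) passed and 817 (8.93%) were higher in T cells. The call of Tnfrsf4 against B cells, with 3 UMIs in CD8 T cells, was kept in 8 of 11 alternatives. Its log2 fold change ranged from 0.61 to 4.13 over the settings. By edgeR, Ctla4 did not pass (adjusted p = 0.059), and the mean gave no usable estimate for Cd40lg because CD8 T cells were at 0, while DESeq2, with 6.33% of genes higher in T cells, called all 9 members higher (adjusted p = 0.0017 for Ctla4 and 4.2e-04 for Cd40lg). CD4 T cells alone had 365 times the B-cell level of Cd40lg (98.7 to 3056) and 159 times that of Pdcd1 (41.6 to 1352), each from 2 UMIs in B cells. They had 71.7 times the B-cell level of Ctla4 (28.9 to 230), 62.0 times that of Cd28 (44.3 to 89.1), 61.7 times that of Icos (30.9 to 140), 34.2 times that of Izumo1r (27.7 to 42.6), 6.20 times that of Tnfrsf18 (5.31 to 7.24) and 2.76 times that of Cd27 (2.51 to 3.03). Set against NK cells, 534 of 4719 genes (11.3%) passed, 361 of them (7.65%) higher and 3.67% of all lower in T cells, and 5 of 8 members tested were higher: Cd28, Icos, Tnfrsf4, Cd27 and Izumo1r. Without a TMM factor 241 genes (5.11%) were higher and 349 lower in T cells, against 361 and 173 with it (median log2 fold change -0.15 and 0.16), and 5 members were again higher. The call of Tnfrsf4 against NK cells was kept in 5 of 11 alternatives. Tnfrsf18 was not among the members higher than in NK cells (log2 fold change -0.14, SE 0.30, adjusted p = 0.85).

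Small shares of B droplets had Izumo1r (1.44%), Cd28 (0.674%) or Tnfrsf4 (0.468%), at medians of 1668 and 1665 UMIs per droplet. Relative to Izumo1r, the proportions of the members were not those of CD4 T cells. Cd28, Tnfrsf4, Icos and Ctla4 kept similar proportions among themselves, with CD4 T over B ratios of 62.0, 63.3, 61.7 and 71.7. For each Izumo1r UMI, B cells had 14.6 Cd27 UMIs, against 1.18 in CD4 T cells, and 3.27 Tnfrsf18 UMIs, against 0.593. The other members had lower ratios to Izumo1r in B cells, at 0.358 for Cd28, 0.236 for Tnfrsf4, 0.0849 for Icos, 0.0472 for Ctla4 and 0.0189 for both Pdcd1 and Cd40lg, against 0.649, 0.437, 0.153, 0.0989, 0.0877 and 0.201 in CD4 T cells. The part of free RNA in the B-cell values was not tested.

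The counts for lists between CD4 and CD8 T cells stand beside 2.00% of all genes called, 1.30% higher in CD4 T cells. Of 22 other costimulatory and inhibitory receptors 12 could be tested between CD4 and CD8 T cells, and Cd5 (log2 fold change 1.94) and Cd6 (1.26), both modulators of antigen receptor signals, were higher in CD4 T cells. The median of the 12 was 0.74, against 0.06 over all genes tested. None of 23 signalling genes tested, such as TRAF adaptors, kinases and NFAT and NF-kB factors, passed by edgeR's test, and their median was 0.25. Of 6 regulatory T-cell genes tested 4 were higher in CD4 T cells, namely Ikzf2 (3.07), Capg (1.97), Nrp1, which had 70 UMIs in CD4 T cells and 1 in CD8 T cells, and Il2ra, which had 61 and 0. Of 4 follicular helper genes tested, Maf (186 UMIs in CD4 T and 3 in CD8 T cells) and Tbc1d4 (108 and 2) were higher. Among naive T-cell genes, 1 of 10 was higher (Igfbp4) and 1 lower (Dapl1, -1.23), and among effector or memory genes 2 of 15 were higher (S100a4, 1.52; Crip1, 0.71) and 2 lower (Ccl5, -2.34; Nkg7, -2.06).

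Of 16 other receptors tested between T and B cells 10 were higher in T cells and 3 lower, led by Cd6 (log2 fold change 5.17), Vsir (3.37), Cd96 (5.37) and Cd5 (5.04), at a median of 3.07 against -0.07 over all genes. Of 26 signalling genes 9 were higher and 5 lower, at a median of 0.23, led by Lat (5.03), Prkcq (6.14) and Lck (3.57), which act below the T-cell receptor. Of 7 ligand genes tested between T and B cells 4 were lower in T cells and 1, Lgals9 (0.58), higher, with a median of -1.95 against -0.07 over all genes. Cd40, the receptor for CD40 ligand, was lower in T cells by a log2 fold change of -5.04, Icosl, the ICOS ligand, by -3.79, Cd86 by -1.80 and Pdcd1lg2, a PD-1 ligand, by -4.44, all at an adjusted p of 0.0018 or less. Between T and NK cells, 4 of 15 other receptors were higher in T cells and 3 lower, at a median of 0.55 against 0.16 over all genes, led by Klrg1 (-3.36), Cd6, which had no UMI in NK cells, Slamf6 (2.20) and Cd160 (-2.33). Of 24 signalling genes tested 3 were higher in T cells and none lower, at a median of 0.44, among them Lat (2.63) and Lck (0.56). Between NK and B cells, 4 of 9 other receptors were higher in NK cells and 3 lower, at a median of 0.71 against -0.26 over all genes, led by Klrg1 (6.46), Cd244a (4.38), Slamf6 (-2.43) and Btla, which had 2 UMIs in NK and 1294 in B cells.

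CD44 is an adhesion receptor that is raised on T cells that have met antigen. Within the CD4 T gate of each library, droplets were split into tertiles of CD44 antibody tags. Of 3034 genes tested between the high and low tertile 118 (3.89%) passed and 90 (2.97%) were higher in the CD44-high tertile. Tnfrsf4 was the only one of 7 members tested that passed (log2 fold change 1.20, SE 0.38, adjusted p = 0.045), and it passed in 8 of 13 alternatives, not with DESeq2. CD44-high droplets were also far larger, with medians of 3991.5 and 4092 UMIs against 1808.5 and 1827 in CD44-low droplets, so the same comparison was made on CD44 as a share of all antibody tags of a droplet, which left medians of 2180.5 and 2088 in the high and 1979 and 2051 in the low tertile. By share, 199 of 2456 genes (8.10%) passed, 99 (4.03%) higher and 100 lower, and 3 of 7 members were higher in the CD44-high tertile: Tnfrsf4, Icos and Izumo1r.

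**Figure D2:**
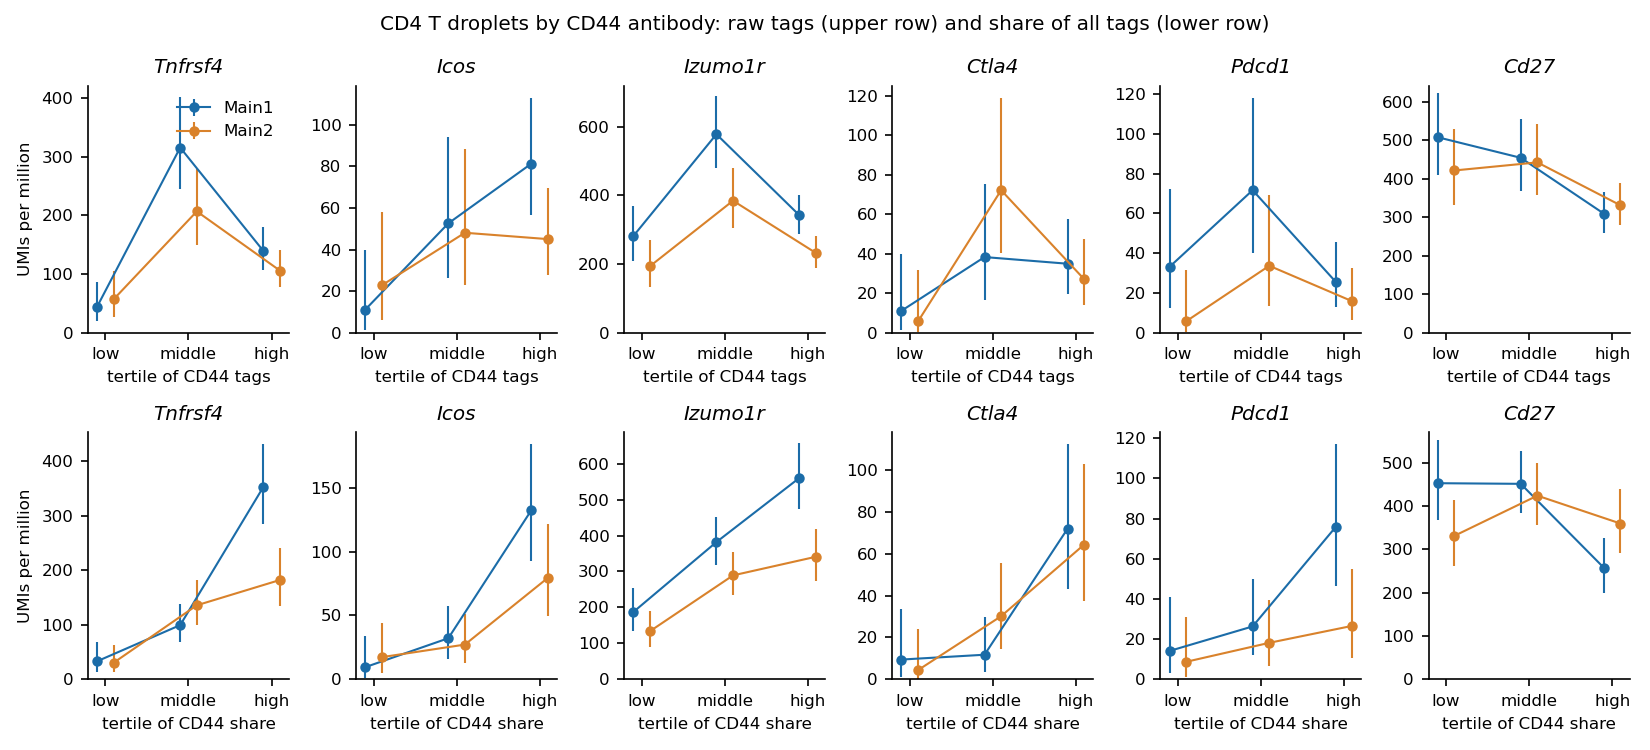
CPM in CD4 T droplets by tertile of the CD44 antibody, low to high, for 6 members, with exact 95% Poisson intervals and 1 line per library. With tertiles of raw tags (upper row) Tnfrsf4 and Izumo1r were highest in the middle tertile, and with tertiles of the share of tags (lower row) Tnfrsf4, Icos, Izumo1r, Ctla4 and Pdcd1 were highest in the high tertile of both libraries.

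Tnfrsf4 had 44.1 and 56.9 CPM in the low, 316 and 207 in the middle and 140 and 106 in the high tertile of CD44 tags. With tertiles of the share it had 32.7 and 30.1 in the low, 99.1 and 136 in the middle and 353 and 182 in the high tertile. High and low values did not overlap in either split, and by share the difference was 8.52-fold in the pooled sums (4.91 to 16; log2 fold change 2.92, SE 0.41, adjusted p = 4.4e-05). With droplets under 4000 UMIs alone the log2 fold change on raw tags was 2.19 (adjusted p = 4.4e-05), where 9.72% of genes passed and 5.20% were higher.

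Icos had 133 and 79.6 CPM in the CD44-high and 9.3 and 17.2 in the CD44-low tertile by share (log2 fold change 2.79, SE 0.53, adjusted p = 0.0011). On raw tags it had 81.3 and 45 against 11 and 22.8 and just missed the threshold (1.79, SE 0.58, adjusted p = 0.055), which it passed without a TMM factor (1.86, adjusted p = 0.039). Izumo1r had 561 and 341 in the high and 187 and 133 in the low tertile by share (1.36, SE 0.24, adjusted p = 4.8e-04), but 342 and 232 against 281 and 194 on raw tags (0.20, adjusted p = 0.80). Ctla4 and Pdcd1 were too rare for the test. By share Ctla4 had 72.0 and 64.4 CPM in the high against 9.3 and 4.3 in the low tertile, a ratio of 10.1 from 36 and 3 UMIs (3.21 to 51.5), and Pdcd1 had 75.8 and 26.5 against 14 and 8.6 (4.57; 1.73 to 15.2). On raw tags the ratios were 3.67 (1.13 to 18.9) for Ctla4 and 1.05 (0.418 to 2.97) for Pdcd1.

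The remaining members did not pass by share. Cd28 had 235 and 197 CPM in the CD44-high and 159 and 189 in the CD44-low tertile by share (log2 fold change 0.18, adjusted p = 0.80). Tnfrsf18 had 254 and 265 against 117 and 198 (0.62, adjusted p = 0.14), and Cd40lg 79.6 and 87.2 against 37.4 and 38.7 (1.0, adjusted p = 0.21). On raw tags Cd27 had lower values in CD44-high droplets, 309 and 331 CPM against 508 and 421 in CD44-low ones, and did not pass (-0.60, SE 0.21, adjusted p = 0.081). Its pooled ratio was 0.688 (0.566 to 0.839). It passed in 1 of 13 alternatives, an edgeR fit of only the populations compared (adjusted p = 0.0037). There 241 of 3034 genes passed, 110 of them lower. By share its libraries differed, with 258 and 360 in the high against 453 and 332 in the low tertile.

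Effector and naive T-cell genes differed by CD44 on raw tags. Of 15 effector or memory genes 13 were higher in the CD44-high tertile, led by S100a6 (log2 fold change 3.60), S100a4 (3.71), Lgals1 (1.88) and Id2 (1.55), with a median of 1.60 against -0.02 over all genes. Of 10 naive T-cell genes 5 were lower and 1 higher, among them Igfbp4 (-1.54), Lef1 (-1.49) and the lymph node homing receptor Ccr7 (-1.47). Higher too were 1 of 3 regulatory T-cell genes tested, Ikzf2 (1.18), and 1 of 4 follicular helper genes, Maf (2.46). Of 17 signalling genes tested 1 was higher, the calcium-responsive factor Nfatc1 (1.89). None of these 3 lists had a lower gene, and none of 7 other receptors tested passed. Myeloid marker sums were 2561 and 5296 CPM in the high and 337 and 563 in the low tertile, with 73.7% and 48.2% of the high-tertile sum in 1 droplet of each library. Erythroid sums were 205 and 164 in the high and 12811 and 12658 in the low tertile, with 98.1% and 98.3% of the low-tertile sum in 1 droplet of each library. CD8 markers were at 279 and 292 in the high and 71.7 and 74.0 in the low tertile on raw tags, but at 83.4 and 98.6 against 145 and 220 by share. By share, plasma cell markers were at 4579 and 8851 in the high and 164 and 280 in the low tertile, with 96.4% and 96.6% of the high-tertile sum in 3 droplets of each library, and myeloid markers at 978 and 8699 in the high against 4113 and 624 in the low tertile. On raw tags, without the droplets that held at least 2 UMIs of the B, myeloid or erythroid genes of RNA purity, Tnfrsf4 passed again (log2 fold change 2.08, adjusted p = 0.0046; 3.19% of 1318 genes passed, 2.50% higher), and Izumo1r (0.39), Cd27 (-0.32), Cd28 (-0.15) and Tnfrsf18 (0.020) did not. For the split by share the part of such droplets was not tested.

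In the CD8 T gate the high and low tertiles each held 9 droplets in Main1 and 23 in Main2. Of 528 genes tested there 27 (5.11%) passed, 4.55% higher and 0.568% lower in the CD44-high tertile (24 and 3 genes, but 24 and 12 without a TMM factor), and Cd27 was the only member with enough UMIs to test, at 442 and 228 CPM in CD44-high and 208 and 257 in CD44-low droplets (log2 fold change 0.31, SE 0.43, adjusted p = 0.86). Of 9 effector or memory genes tested 3 were higher in the CD44-high tertile, Ccl5 (2.40), S100a6 (4.17) and Lgals1 (1.78), and none lower. Of 4 naive genes tested 2 were lower, Dapl1 (-1.55) and Lef1 (-1.55), and none higher. Of the markers of other cells tested, 2 of 2 myeloid markers (median log2 fold change 3.12), 1 of 1 plasma cell marker (4.68) and 1 of 2 NK markers were higher too. The difference by CD44 was compared between the lineages for 3498 genes, of which 15 (0.429%) passed, 0.114% higher and 0.314% lower (median -0.16, or -0.0088 without a TMM factor), and none of 7 members by edgeR or DESeq2, even at an unadjusted p under 0.05. Only Cd27 and Tnfrsf18 had more than 3 UMIs in both CD8 T tertiles, and for Cd27 the difference of log2 fold changes, CD4 minus CD8, was -0.91 (SE 0.47, adjusted p = 0.96).

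The antibody panel held 1 of the members' proteins, CD27. Its median was 50 and 56 tags per droplet in CD4 T cells of Main1 and Main2, 61 and 46 in CD8 T cells, 7.5 and 5.5 in NK cells, and 2 and 1 in B cells. NK droplets had fewer tags of all antibodies, at medians of 893 and 1081.5 against 2854 and 3273 in CD4 T droplets. As a median share of all tags in the pooled libraries, CD27 was at 1.55% in CD4 T and 1.47% in CD8 T droplets. It was at 0.685% in NK and 0.0384% in B droplets. Cd27 RNA did not follow the step from NK to B cells. B cells had 139 CPM of Cd27 in the pooled libraries, 22.9% of droplets with a UMI and a median of 1 tag, and NK cells had 126 CPM, 21.7% of droplets and a median of 6 tags. Across droplets, Spearman's rho of CD27 tags with Cd27 UMIs was 0.43 in CD4 T, 0.26 in CD8 T, 0.27 in NK and 0.04 in B cells. On shares of tags and of UMIs, which take out part of droplet size, it was 0.24, 0.12, 0.23 and -0.01. These correlations describe droplets that share a library and depth. In CD4 T droplets, the rho of CD27 tags with total UMIs was 0.45.

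**Figure D3:**
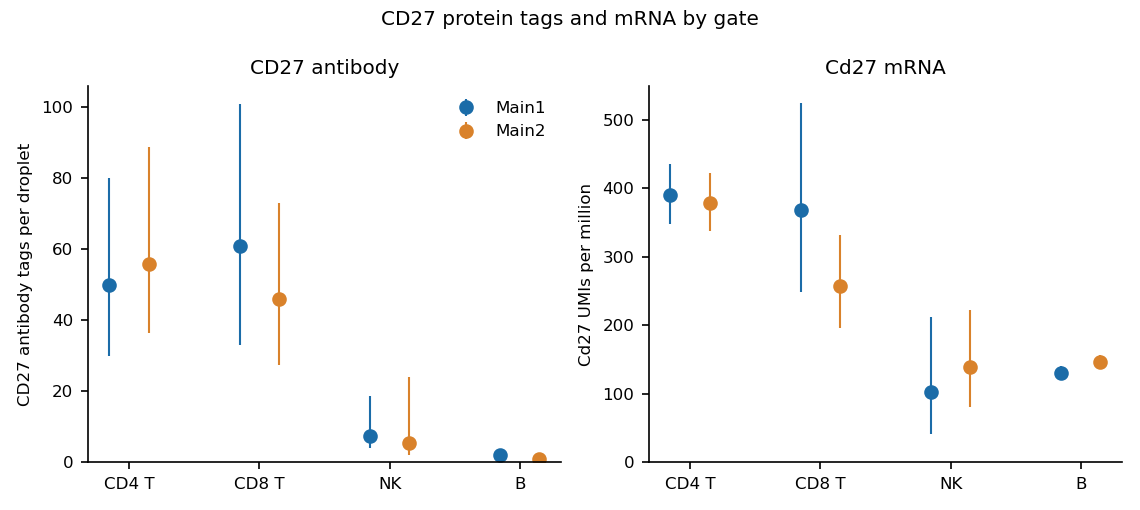
CD27 antibody tags per droplet (left, median and quartiles) and CPM of Cd27 (right, with exact 95% Poisson intervals) in the 4 gates, 1 point per library. The antibody medians were 46 to 61 in T cells against 1 and 2 in B cells, while Cd27 RNA in B cells (130 and 147) was about as high as in NK cells (103 and 139).

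Tertiles of CD27 tags within the CD4 T gate gave 408 and 389 CPM of Cd27 in CD27-antibody-high and 260 and 263 in CD27-antibody-low droplets. The groups did not overlap, but the difference did not pass (log2 fold change 0.55, SE 0.21, adjusted p = 0.17), where 91 of 3138 genes (2.90%) passed, 17 of them (0.542%) higher and 74 (2.36%) lower. None of 7 members tested passed on raw tags by edgeR or DESeq2, although Tnfrsf4, Tnfrsf18 and Cd27 had an unadjusted p under 0.05 by edgeR, and Tnfrsf18 passed without a TMM factor (adjusted p = 0.043; 3.09% of genes passed). By the share of antibody tags, 92 of 2618 genes (3.51%) passed, 24 (0.917%) higher, and 4 of 7 members did, all higher in the high tertile: Cd27 (531.7 and 530.3 CPM in the high against 257 and 311 in the low tertile; log2 fold change 0.91, adjusted p = 2.9e-04), Izumo1r (0.91, adjusted p = 3.8e-05), Tnfrsf18 (1.02, adjusted p = 6.3e-04) and Tnfrsf4 (1.20, adjusted p = 2.6e-04). Ctla4, too rare to test, had 61.5 and 79.8 CPM in the high against 10.1 and 21.8 in the low tertile by share. Cd28 (0.22), Icos (-0.09) and Cd40lg (-0.07) did not pass. By share, myeloid markers summed to 347 and 479 CPM in the CD27-antibody-high and 3769 and 7129 in the low tertile, and erythroid markers to 198 and 211 in the high and 7923 and 6989 in the low tertile. Their part in the values by share was not tested. With droplets under 4000 UMIs alone and raw tags, 52 of 1684 genes (3.09%) passed, 9 (0.534%) higher, among them Cd27 (0.82), Tnfrsf4 (1.22) and Tnfrsf18 (1.29).

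On raw CD27 tags, 1 of 4 regulatory T-cell genes tested, Ikzf2 (log2 fold change 0.93), and 1 of 10 naive genes, Satb1 (1.31), were higher in CD27-antibody-high CD4 T droplets. Of 8 other receptors tested 1 was lower, the inhibitory receptor Lag3 (-2.15), and none higher. Of 15 effector or memory genes 7 were lower and 2 higher, with S100a4 (-1.29), Crip1 (-1.13), Itgb1 (-1.01) and S100a11 (-1.03) in front. Of the markers of other cells tested, 4 of 4 erythroid (median log2 fold change -6.47), 2 of 2 plasma cell (-3.63) and 4 of 4 myeloid markers (-3.81) were lower and 2 of 2 CD8 markers (2.45) higher in the CD27-antibody-high droplets. Without the droplets that held at least 2 UMIs of the B, myeloid or erythroid genes of RNA purity, none of 5 members tested passed by edgeR, where 5 of 1329 genes (0.376%) did, with Tnfrsf18 at 1.19 and Cd27 at 0.67. Myeloid transcripts were concentrated, with 82.7% and 54.1% of the low-tertile sum in 1 droplet of each library. In the CD8 T gate 99 of 528 genes (18.8%) passed, 77 higher and 22 lower, but 9 and 29 without a TMM factor (median log2 fold change 0.17 and 0.0017), and Cd27, the 1 member tested, did not (0.70, adjusted p = 0.29). In the NK gate 88 of 352 genes (25.0%) passed, 19.3% higher and 5.68% lower (68 and 20 genes, but 37 and 24 without a TMM factor, with medians of 0.32 and 0.21), and no member had enough UMIs, with Cd27 at a pooled 192 CPM in CD27-antibody-high and 75.1 CPM in low droplets, from 15 and 4 UMIs. Among B cells 56 of 8141 genes (0.688%) passed, 0.565% higher and 0.123% lower, and none of 3 members tested by edgeR or DESeq2, even at an unadjusted p under 0.05, with Cd27 at 147 and 140 in the high and 119 and 146 in the low tertile (0.12, adjusted p = 1.0). CD27 tags in B cells had quartiles of 1 and 3 in Main1 and 0 and 2 in Main2. Their tertiles thus split tied counts of very few tags, with 779 and 1198 droplets in the high and 1086 and 891 in the low tertile. Such a split cannot decide whether Cd27 follows its protein in B cells.

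Within the CD4 T gate the members were not spread evenly over droplets. Of 541 droplets, 223 had no UMI of any of Tnfrsf4, Izumo1r, Icos, Ctla4, Pdcd1 and Cd40lg, 170 had 1 of the 6, 89 had 2, 37 had 3, 16 had 4 and 6 had 5. Droplets with more of them were deeper, at a median of 2021 UMIs with none and 8865 UMIs with 5. Among the 107 droplets with Tnfrsf4, 74 (69.2%) also had Izumo1r, against 33.2% of those without, and 60.7% had Tnfrsf18, against 29.3%. Icos was in 28.0% against 7.37%, and the regulatory T-cell genes Ikzf2, which encodes Helios, and Foxp3 were in 61.7% against 18.4% and in 22.4% against 4.61%. The depth of the groups was close, at medians of 2432 UMIs with Tnfrsf4 and 2165.5 without. Among droplets under 4000 UMIs, Izumo1r was in 67.6% against 30.8% and Ikzf2 in 59.2% against 17.0%.

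**Figure D4:**
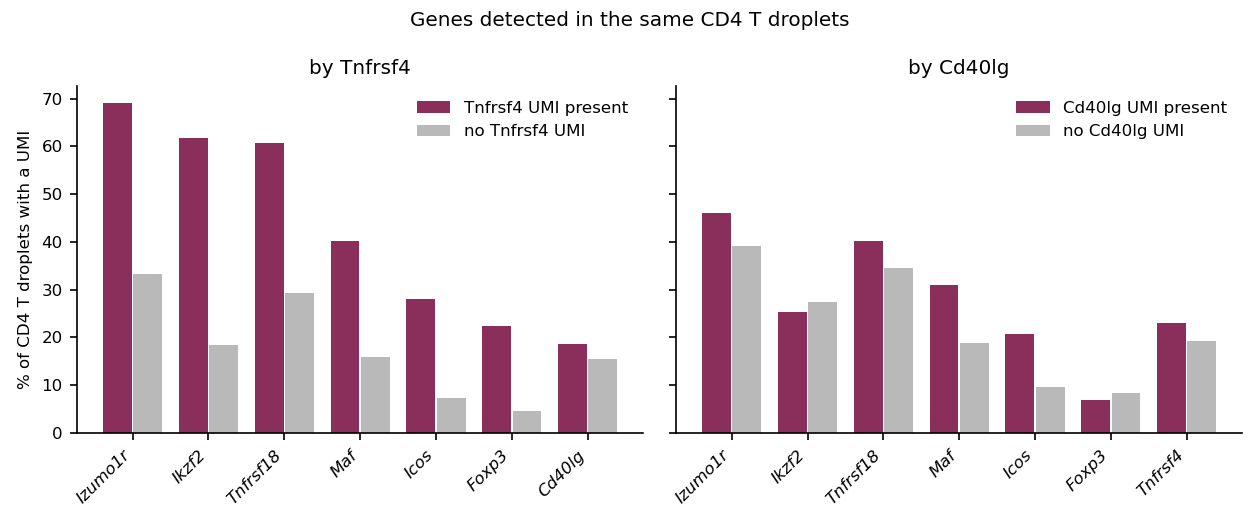
Percent of CD4 T droplets with at least 1 UMI of the gene named under each pair of bars (y axis from 0), among droplets with (dark) and without (grey) a UMI of Tnfrsf4 (left) or Cd40lg (right). Ikzf2 was in 61.7% of droplets with Tnfrsf4 against 18.4% without, and in 25.3% of those with Cd40lg against 27.3% without.

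Ctla4, in 40 droplets, kept similar company: 32 of them had Izumo1r, against 37.1% of the other droplets, 65.0% had Ikzf2, against 24.0%, and 70.0% had Maf, against 16.8%. They also had Cd27 more often (32 of 40, against 57.7%), at medians of 2920 and 2195 UMIs. Pdcd1, in 39 droplets, came with Maf in 53.8% against 18.1% and with Tbc1d4, a gene of follicular helper cells, in 33.3% against 12.0%. Of the 13 droplets with both Pdcd1 and Tbc1d4, 10 were in Main1 and 3 in Main2. Of the 21 with both Pdcd1 and Maf, 16 were in Main1 and 5 in Main2. The Pdcd1 droplets also had Ikzf2 in 51.3% against 25.1%, Foxp3 in 23.1% against 6.97% and Izumo1r in 61.5% against 38.6%. Under 4000 UMIs, with 28 Pdcd1 droplets, Ikzf2 was in 53.6% against 21.9% and Izumo1r in 60.7% against 35.1%. Foxp3 was in 10.7% against 5.90% there. Tbc1d4 was more frequent with Tnfrsf4 too, in 26.2% against 10.4%. Icos, in 62 droplets, came with Maf in 53.2% against 16.5% and with S100a6 in 62.9% against 32.2%, although these droplets were deeper (3380 against 2178 UMIs). Cd40lg differed from Tnfrsf4 in this respect. Of its 87 droplets 25.3% had Ikzf2, against 27.3% of the others, 6.90% had Foxp3, against 8.37%, and 23.0% had Tnfrsf4, against 19.2%. Cd28, in 219 droplets, came with Cd40lg in 22.8% against 11.5%, but under 4000 UMIs the shares were 15.9% and 11%. These are counts in sparse data, given without a test.

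The genes most like each member were ranked by Pearson's r of log2(CPM + 10) over 14 sums, the CD44 tertiles of CD4 and CD8 T cells and the NK gate of both libraries, among 2714 genes with at least 100 UMIs. Tnfrsf4 was most like Cd40lg (r = 0.96), Cd4 (0.92) and Izumo1r (0.90), and Ctla4 most like Tnfrsf4 (0.95), Cd40lg (0.92) and Cd4 (0.85). Cd40lg was followed by Tnfrsf4, Cd4 (0.95) and Tbc1d4 (0.90). Izumo1r was most like Ass1 (0.92), Ifi27l2a (0.92) and Tnfrsf4. Cd27 stood with Slfn1 (0.90), Stk17b (0.89) and Skap1 (0.89), Cd28 with Kmt2a (0.92), Rpl10-ps3 (0.90) and Ago2 (0.89), Tnfrsf18 with Gpbp1l1 (0.94), Avl9 (0.94) and Pnisr (0.93), and Icos with Mbnl1 (0.81), Pgs1 (0.80) and Il21r (0.79). The sums include CD8 T and NK cells, so genes seen almost solely in CD4 T cells, Cd4 among them, rank as alike whether or not they share droplets. Cd40lg droplets had Tnfrsf4 in 23.0%, against 19.2% of the other CD4 T droplets. The sums share libraries and differ in depth, and Pdcd1, with 48 UMIs, was not ranked.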

How the data were processed

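The deposited tables held raw UMI counts per gene and antibody tag counts per droplet for Main1 and Main2, each library pooled by the authors from 4 RNA samples. Reads had been processed with bcl2fastq and Cell Ranger 3.0.2 against mm10, per the submitters' processing notes. Every deposited gene was seen in at least 15 droplets, and no mitochondrial gene was present.

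Antibody gates used 2-component Gaussian mixtures on centred log-ratios (posterior 0.5). No doublet caller was run. UMIs were summed per library and population and tested with edgeR 4.0.16 (quasi-likelihood, TMM, library as a block) in R 4.3.3, with Benjamini-Hochberg adjustment over genes with at least 50 UMIs. The main fits had 3 (gates), 5 (CD44) and 7 (CD27) residual degrees of freedom. The prior degrees of freedom, which weigh the spread shared over genes, were infinite, 191 and infinite. DESeq2 1.42.0 was an alternative. The library pairs the sums by construction, since each library gave every population. Intervals (95%, exact Poisson, conditional binomial or Clopper-Pearson) cover counting error only. A level of 0 was given a floor of 3 UMIs over the gate.

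The members and gene lists were chosen with earlier results of these data known, so lists are described by counts and medians, without a test. All 9 members are named. Genes of the lists are named from the up to 4 past the threshold with the smallest adjusted p, and not every such gene is reported here.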

Additional observations from a re-analysis of the deposited data

How the results depend on the processing

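Of 610 alternatives to the 49 member results, 509 stayed the same, 18 lost a call, 23 gained one, 46 moved a value and 14 reversed, none of a called result. Staying the same meant keeping direction and side of the threshold. For 1 library alone it meant lying within the standard deviation of the 2 libraries around the main value. There, direction was checked for called results only. Uncalled results could change sign in 1 library and not count as reversed, such as Cd27 for CD44 in CD8 T (lowest value -0.17). The causes were not tested. Reversed were Icos for CD4 against CD8 T under 4000 UMIs (-0.11) and for CD27 by share (-0.093), Izumo1r for CD44 with log-ratios within droplets (-0.13), Cd28 for CD44 after RNA purity (-0.15), Cd27 for CD44 in CD8 T with a median split (-0.16), Tnfrsf18 for CD44 in CD4 T under 4000 UMIs (0.48), after RNA purity (0.020), with the earlier gate (0.48), by share (0.62) and at the ratio of 10 (0.30), and Tnfrsf18 for the lineage difference by CD44 with these settings bar the first (0.67, 0.042, 1.25 and 0.40). RNA purity leaves out T and NK droplets with at least 2 UMIs of the named B, myeloid and erythroid genes, so droplets with fewer, or with other such transcripts, stay in.

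Counts of genes called moved by over 1.5 times as follows. CD4 against CD8 T (88) gave 23 with DESeq2, 47 with no replicate block and 31 after RNA purity. T against B (1836) gave 1112 with DESeq2 and 1207 after RNA purity. CD44 in CD4 T (118) gave 32 with DESeq2, 78 with the earlier gate, 58 with no replicate block, 241 with only the populations compared, 42 after RNA purity and 199 by share. CD44 in CD8 T (27) gave 43 at 20 UMIs, 0 with DESeq2 (59 at an unadjusted p under 0.05), 11 with no replicate block, 6 after RNA purity and 73 by share. The lineage difference by CD44 (15) gave 5 at the ratio of 10, 4 each with DESeq2, under 4000 UMIs, with no replicate block and after RNA purity, 2 with the earlier gate, 29 with log-ratios and 3 by share. CD27 in CD4 T (91) gave 34 at the ratio of 10, 37 with DESeq2, 52 under 4000 UMIs and 5 after RNA purity. CD27 in CD8 T (99) gave 57 at 20 UMIs, 8 under 4000 UMIs, 38 with no TMM factor (9 higher and 29 lower, against 77 and 22), 25 with a median split, 31 with no filter, 52 with no replicate block, 0 with only the populations compared, 1 after RNA purity and 36 by share. CD27 in NK (88) gave 27 with DESeq2 and 27 under 4000 UMIs, 43 with no filter, 21 with only the populations compared and 5 after RNA purity. CD27 in B (56) gave 5 with DESeq2, 23 under 4000 UMIs and 96 with only the populations compared.

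Each library alone gave log2 differences for CD4 against CD8 T of 2.25 to 3.09 (Izumo1r), 2.51 to 4.11 (Tnfrsf4) and 0.93 to 1.15 (Tnfrsf18), and of 0.79 to 1.46 for Tnfrsf4 by CD44. Of 126 alternatives to the 36 shares of droplets with a UMI, 70 moved out of the interval of the share. In 100 CD8 T and 106 NK droplets a count of 0 has an exact upper 95% bound of 3.62% and 3.42% (Clopper-Pearson).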

Other observations

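Within the B gate, values were taken for antibody-defined subsets. Cd27 had 141 and 160 CPM in the marginal zone antibody gate, 127 and 159 in the follicular gate and 129 and 138 in the remaining B droplets of Main1 and Main2. Tnfrsf18 had 29.3 and 34.9 in the marginal zone gate, 30.5 and 26.5 in the follicular gate and 30.5 and 33.5 in the rest. Izumo1r had 0 and 5.38 in the marginal zone gate, 7.27 and 3.31 in the follicular gate and 16.4 and 9.34 in the rest. These values were not tested.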
